A study of Mus musculus with 4 samples.

Results

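The genes of the γδ T cell receptor were examined in CD45+ leukocytes of the mouse hindpaw. The 5 genes described are Trdc, Tcrg-C1, Tcrg-C2, Trgv2 and Trdv4, chosen by symbol from the 32285 genes of the deposited tables, which hold 26 γ and δ receptor rows in all. Leukocytes came from male Leprdb/db mice (DB) and from their WT littermates, at 12 or 21 weeks of age. The background is C57BLKS/J. DB mice are homozygous for the db allele of the leptin receptor gene and are obese and diabetic. The groups were 12-week-WT and 12-week-DB and, at the later age, 21-week-WT and 21-week-DB, with 1 droplet library each, made from the pooled cells of 2 to 3 mice. In this assay a barcode marks the droplet, and thus the cell, that a transcript came from, and a unique molecular identifier (UMI) marks the molecule. Because each condition had 1 library, conditions were not tested against each other, and every interval below is an exact 95% interval that covers counting error only.

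T cells recognise antigen through a receptor made of an α and a β chain or of a γ and a δ chain. Each chain joins a variable segment, which contacts the ligand, to a constant region, which anchors the chain in the membrane next to the CD3 signalling proteins. In mouse skin, γδ T cells are abundant. Dendritic epidermal T cells (DETC) sit between keratinocytes and carry one nearly invariant receptor, while dermal γδ T cells include cells that release interleukin-17. Type 2 innate lymphoid cells (ILC2) and natural killer (NK) cells carry no T cell receptor.

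Trdc encodes the δ constant region and lies at chr14:54142851-54148868, on the plus strand of GRCm38. Trdv4, at chr14:54074905-54075515 on the same strand, encodes the δ variable segment used in the invariant receptor of DETC and in that of fetal-wave dermal γδ T cells. It ends 67336 bases before Trdc. Tcrg-C1 (chr13:19214103-19217024, plus strand) and Tcrg-C2 (chr13:19304649-19307551, minus strand) encode γ constant regions. Trgv2 (chr13:19336573-19337167, minus strand) encodes a γ variable segment and lies 29022 bases upstream of Tcrg-C2, on the same strand. The positions and sequences are those of the reference annotation, from the C57BL/6J strain, not of the mice studied.

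The first bases of exon 1 of both γ constant genes are shown because the genes are near copies of each other. Capitals mark the 2 bases at which these stretches differ. Over exon 1 the genes were identical at 321 of 330 bases (97.3%), and over the whole transcripts at 94.1% of aligned positions. Positions are chr13:19214103-19214222 (plus strand) and chr13:19307432-19307551 (minus strand).

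Tcrg-C1 exon 1: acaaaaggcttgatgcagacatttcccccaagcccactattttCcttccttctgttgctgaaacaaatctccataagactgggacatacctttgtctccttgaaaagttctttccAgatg
Tcrg-C2 exon 1: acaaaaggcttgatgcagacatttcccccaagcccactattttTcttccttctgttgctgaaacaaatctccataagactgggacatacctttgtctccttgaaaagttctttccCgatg

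Exon 2, which encodes part of the stalk between the constant domain and the membrane, differs in coding length, with 45 bases in Tcrg-C1 (chr13:19215864-19215908) and 30 bases in Tcrg-C2 (chr13:19305769-19305798). Exon 3 has 549 and 554 bases, of which 140 are coding in both genes.

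Tcrg-C1 exon 2: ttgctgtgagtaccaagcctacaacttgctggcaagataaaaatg
Tcrg-C2 exon 2: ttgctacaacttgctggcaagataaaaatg

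Of all 90-base windows of the transcript, 93 of 835 (11.1%) of Tcrg-C1 and 21 of 825 (2.55%) of Tcrg-C2 also occurred in another γ constant gene. A read from such a window cannot be assigned to 1 gene. No such window was shared for Trgv2 or Trdv4, and 3 of 3776 were shared for Trdc. The variable segments carry the identity of a receptor, so the coding part of exon 2 is shown for both, at chr14:54075217-54075515 for Trdv4 and, for its first 120 bases, at chr13:19336760-19336879 (minus strand) for Trgv2.

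Trdv4 exon 2: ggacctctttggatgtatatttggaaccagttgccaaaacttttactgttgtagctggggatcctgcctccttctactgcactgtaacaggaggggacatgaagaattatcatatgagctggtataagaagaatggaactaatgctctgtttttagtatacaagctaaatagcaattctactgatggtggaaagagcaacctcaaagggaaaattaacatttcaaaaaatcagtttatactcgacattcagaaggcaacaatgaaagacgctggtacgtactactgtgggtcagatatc
Trgv2 exon 2: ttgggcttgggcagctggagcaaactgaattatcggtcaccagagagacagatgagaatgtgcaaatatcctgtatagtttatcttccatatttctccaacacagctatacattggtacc

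The assay captures transcripts by their 3′ end, whereas a variable segment lies at the 5′ end of a rearranged receptor transcript. Transcripts of a rearranged and of an unrearranged segment cannot be told apart in these counts.

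The files held 30793 barcodes, of which 27800 were kept, with a median of 5355 to 8001 UMIs per library. Lymphoid types were gated on marker genes that included no γ or δ receptor gene, which gave 2625 dermal γδ T cells, 840 DETC, 1614 αβ T cells, 2375 ILC2 and 278 NK cells. Of the dermal γδ markers, Cd163l1 was detected in 83.1% to 92.0% and Cxcr6 in 91.8% to 95.6% of the gated cells per library, but Il17a in 12.9% to 24.0%. DETC had Cd7 in 83.9% to 95.9% and Trat1 in 87.5% to 95.8%, but Cd200r1, also a marker of their gate, in 1.81% to 10.7%. Cd200r1 was detected more often in other types, in 33.6% to 45.4% of ILC2 and 15.2% to 26.55% of αβ T cells. The dermal γδ marker Cd163l1 was also detected in 67.9% to 83.3% of DETC. NK cells had Ncr1 in 68.6% to 78.7% and Klra8 in none. Other NK markers varied more between libraries, with Gzma in 21.3% to 84.9% and Eomes in 23.4% to 70.3%. Values are given here in the order WT then DB at 12 weeks, followed by WT then DB at 21 weeks. DETC numbered 118, 497, 56 and 169, so their values were least precise in 21-week-WT. Levels are given as CPM, a gene's UMIs scaled to 1000000 UMIs of the same cells. Barcodes that also occurred in another library numbered 63, 83, 181 and 191. Their total of 518 counts a shared barcode in each library that held it, and 42 of the 518 were gated. The pair of 21-week libraries had 154 distinct barcodes in common. Without the shared barcodes no call of a member between types changed. No DB to WT ratio of a member in dermal γδ T cells or DETC moved beyond its counting interval. Ratios in ILC2, ratios across age and those of Tcrg-V6 were not part of this check. Cells near the edge of the gate, with a margin of 0.5 to 1.0 SD units between their best and second-best marker score, made up 34.3% of dermal γδ T cells in 21-week-DB against 14.9% to 19.3% in the other libraries. Per library they made up 32.5% to 37.8% of ILC2 and 22.0% to 27.6% of αβ T cells. In DETC they were 5.93% to 21.4% and in NK cells 2.70% to 14.9%. With a margin of 1.0 SD, which leaves these cells out, the 21-week DB to WT ratio in dermal γδ T cells was 2.05 for Trdv4 and 1.14 for Trdc, compared with 1.91 and 1.08 with them. Summed dendritic cell markers in the gated dermal γδ T cells stood at 584, 430, 557 and 129 CPM, with none of the 6 markers at 0, and macrophage markers at 390, 401, 192 and 257, with none of 7 at 0. Summed NK markers in the gated NK cells stood at 5132, 2340, 7125 and 1859 CPM, lower in DB at both ages. The part of all these markers in the differences between libraries below was not tested.

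Trdc marked both γδ types in nearly every cell. It was detected in 95.6%, 93.7%, 97.2% and 96.8% of dermal γδ T cells and in 94.9%, 96.6%, 85.7% and 94.1% of DETC. Its level was 1516, 1663, 1332 and 1439 CPM in dermal γδ T cells and 1841, 1529, 1461 and 1608 in DETC. Both types overlapped in level. In αβ T cells Trdc was found in 4.40%, 5.13%, 5.45% and 5.25% of barcodes, or 21.5, 15.1, 20.5 and 23.6 CPM. Macrophages, which do not make it, had it in 2.72% to 3.96%, or 2.63 to 4.20 CPM. Macrophage barcodes were required to have no CD3 UMI, a limit not set for the lymphoid types. Their values may thus be low as a background. At least 2 UMIs were found in 0.962% to 1.89% of αβ T cells and in 0.0591% to 0.142% of macrophages. Macrophage barcodes had a median of 8573 to 10140 UMIs, compared with 4628 to 5370 in αβ T cells. NK cells had a larger share than both, with Trdc in 18.9% (10.8% to 29.7%), 13.7%, 15.1% and 12.8%. Their level was 53.5, 35.1, 36.0 and 18.7 CPM, and the last value, from 6 UMIs, lay below that of αβ T cells. Of the 41214 Trdc UMIs, 64.2% lay in gated dermal γδ T cells, 16.9% in DETC and 10.8% in lymphoid barcodes that passed no gate. By library the share in these ungated barcodes was 5.43%, 4.20%, 11.6% and 18.3%.

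**Figure D1:**
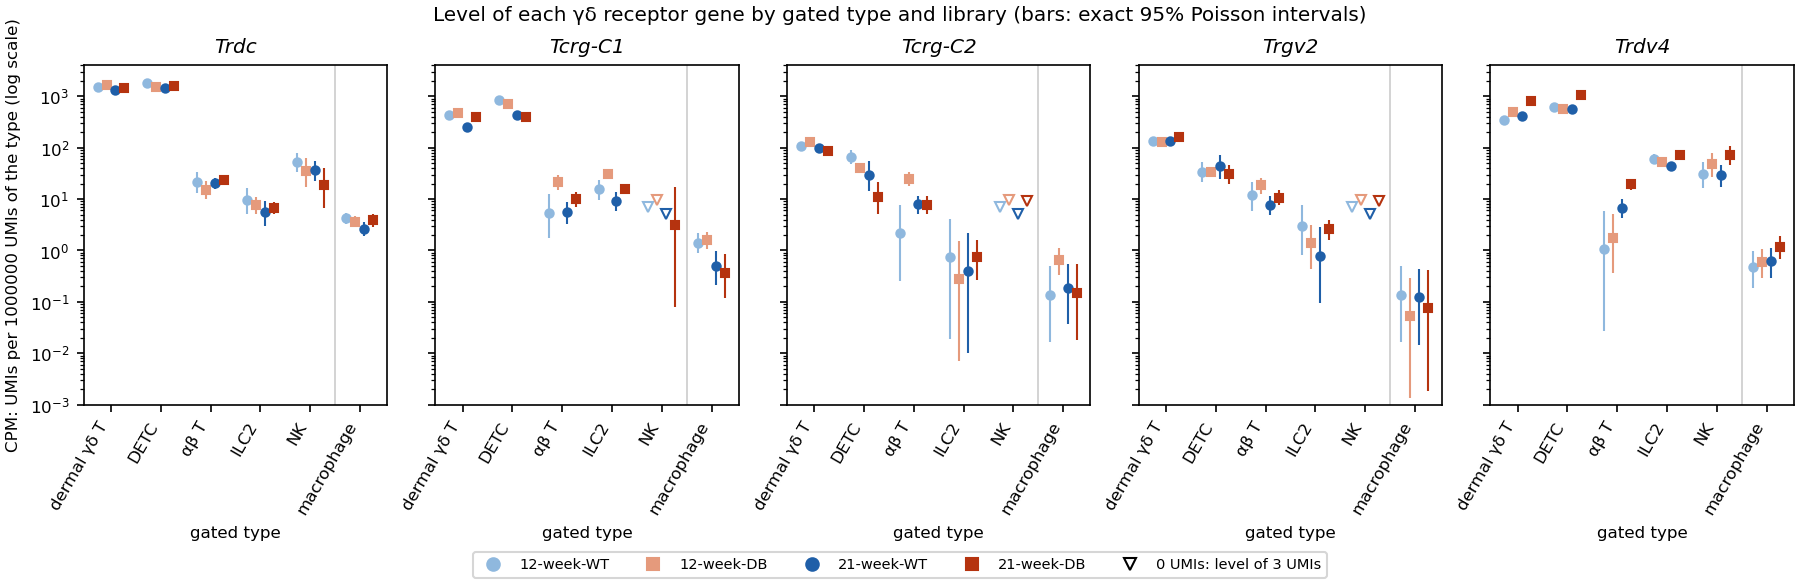
CPM of each receptor gene (log axis) in the gated lymphoid types and in macrophages, with 1 point per library and exact 95% counting intervals. Trdc lies at 1332 or more in both γδ types and at 53.5 or less elsewhere, while Trdv4 in ILC2 lies at 43.0 to 70.6, between the γδ types and macrophages.

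Tcrg-C1, a γ constant gene, was detected in 84.4%, 84.9%, 74.8% and 80.0% of dermal γδ T cells and in 87.3%, 88.7%, 75.0% and 72.2% of DETC. Its level in dermal γδ T cells was 434, 476, 252 and 394 CPM. DETC had 862, 719, 434 and 396, highest in the 12-week libraries. ILC2 held some Tcrg-C1, with 7.98%, 14.4%, 5.41% and 6.85% of cells positive against 0.355% to 1.54% of macrophages. NK cells had 0, 0, 0 and 1 UMI of it. For the 3 counts of 0, the exact intervals of the share of NK cells with a UMI reach 4.86%, 6.98% and 3.42%.

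Tcrg-C2 and Trgv2, which lie side by side in the genome, were both low and largely dermal. Tcrg-C2 was detected in 39.1%, 40.0%, 38.6% and 29.1% of dermal γδ T cells and in 21.2%, 15.5%, 10.7% and 4.73% of DETC. Trgv2 was detected in 38.0%, 39.4%, 42.3% and 40.4% of dermal γδ T cells and in 14.4%, 13.1%, 14.3% and 8.28% of DETC. Dermal γδ T cells stood above DETC for both genes in every library. No UMI of either gene was found in the 278 NK cells, and macrophages were at 0.709% or less. In αβ T cells, Tcrg-C2 was at 2.15, 24.95, 7.97 and 7.77 CPM, and the 43 UMIs of 12-week-DB came from 13 of 312 cells.

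Trdv4 was the member detected in the largest share of ILC2, a type with no T cell receptor. It was detected in 66.1%, 75.1%, 72.9% and 87.5% of dermal γδ T cells, or 352, 492, 421 and 804 CPM, and in 83.1%, 82.1%, 76.8% and 91.1% of DETC, or 628, 575, 576 and 1050. The 21-week-DB library was highest in both types. In ILC2, Trdv4 was detected in 26.6% (20.4% to 33.5%), 23.0%, 21.9% and 28.4% of cells, whereas macrophages had 0.450% to 0.995% and αβ T cells 0.629% to 2.70%. ILC2 had a median of 5856 to 6775 UMIs, fewer than macrophages. NK cells had 12.2%, 21.6%, 15.1% and 40.4% (26.4% to 55.7%). The Trdv4-positive ILC2 mostly lacked Trdc, so that 583 of 2375 ILC2 (24.5%) had Trdv4 without Trdc. This was not particular to ILC2, since 53 of 278 NK cells (19.1%) had it too. In dermal γδ T cells it was found in 15 of 2625 (0.571%). The ratio of Trdv4 to Trdc UMIs was 6.15, 6.96, 7.79 and 10.4 in ILC2 and 0.232, 0.296, 0.316 and 0.559 in dermal γδ T cells. In NK cells, with 23, 11, 21 and 6 Trdc UMIs, it was 0.565, 1.36, 0.810 and 3.83. Within each library the ratio was thus higher in ILC2 and in NK cells than in dermal γδ T cells.

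**Figure D2:**
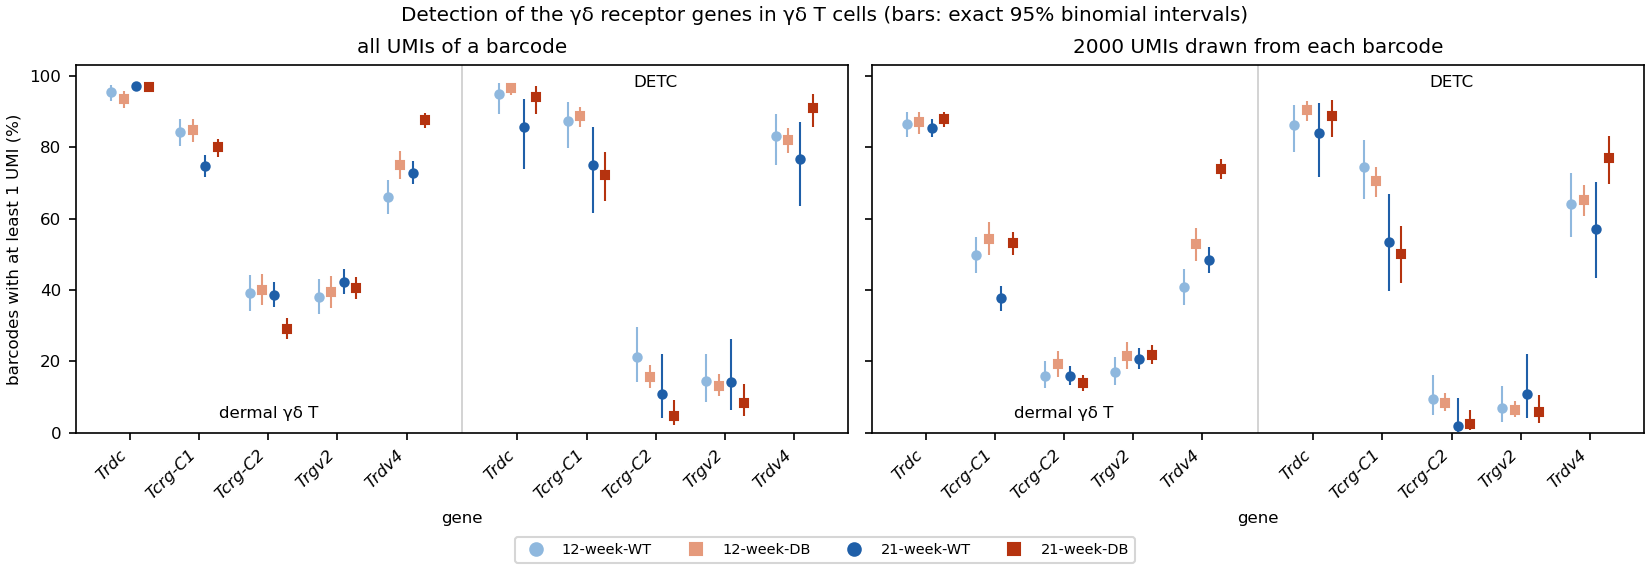
Percent of barcodes with at least 1 UMI of each member in dermal γδ T cells and DETC, 1 point per library, as deposited (left) and after thinning each barcode to 2000 UMIs (right), with exact 95% intervals. Trdv4 in the dermal γδ T cells of 21-week-DB is at 87.5% as deposited and 74.0% thinned, above the other 3 libraries in both panels.

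Depth differed between libraries, so each dermal γδ T cell was also thinned to 2000 UMIs, which left out 2, 3, 3 and 37 shallower cells. Trdv4 was then detected in 40.8%, 52.8%, 48.4% and 74.0% of cells and Tcrg-C1 in 49.7%, 54.4%, 37.7% and 53.1%. Trdc stayed between 85.5% and 88.0% in all 4. Thus 21-week-DB remained highest for Trdv4 and 21-week-WT lowest for Tcrg-C1.

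The lymphoid types were compared within libraries, on counts summed by type and library (edgeR quasi-likelihood test with library as a block, Benjamini-Hochberg adjusted over 10765 genes). All 5 members were tested. Against αβ T cells, all 5 were higher in dermal γδ T cells, where 10.1% of all genes tested were called higher. For Trdc and Trdv4 this is no independent result. From these same data, the paper names both as dermal γδ markers beside the gate markers Cd163l1, Cxcr6 and F2r. The median difference of the members was 5.16 on the log2 scale, compared with -0.01 over all genes. Trdc was higher by 6.15 ± 0.16 (SE, adjusted p = 2.70e-19), Trdv4 by 5.92 ± 0.24 and Tcrg-C1 by 5.16 ± 0.22. The neighbours Trgv2 and Tcrg-C2 were higher by 3.60 ± 0.19 and 3.23 ± 0.27 (edgeR adjusted p = 4.15e-09 for Tcrg-C2).

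DETC were also higher than αβ T cells in all 5 members, where 24.7% of genes were called higher and 23.7% lower. The difference was 6.31 for Trdc, 6.44 for Trdv4 and 5.81 for Tcrg-C1, but 1.70 ± 0.35 for Tcrg-C2 (edgeR adjusted p = 0.000409) and 1.64 ± 0.25 for Trgv2. Compared directly, dermal γδ T cells exceeded DETC in Trgv2 by 1.96 ± 0.19 (edgeR adjusted p = 1.18e-08) and in Tcrg-C2 by 1.53 ± 0.27 (adjusted p = 6.01e-05), where 25.5% of genes were called higher. Tcrg-C1 was lower in dermal γδ T cells, with a log2 difference of -0.65 ± 0.16 (edgeR adjusted p = 0.00172), and Trdv4 was lower too, at -0.52 ± 0.17 (adjusted p = 0.0132), where 26.8% of genes were called lower. Trdc was not called (edgeR adjusted p = 0.268, difference -0.16 ± 0.12). The call for Trdv4 was lost with DESeq2 (adjusted p = 0.0849), with no library block (edgeR adjusted p = 0.306) and without 12-week-WT (adjusted p = 0.0815), and that for Tcrg-C1 with no library block (adjusted p = 0.0682).

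In ILC2, Trdv4 was higher than in αβ T cells by 2.82 ± 0.25 (edgeR adjusted p = 4.14e-09) and Tcrg-C1 by 0.79 ± 0.26 (adjusted p = 0.0301), where 10.1% of genes were called higher. Trdc, Trgv2 and Tcrg-C2 were lower, where 10.0% of genes were, but the call for Trgv2 was lost with a stricter gate (edgeR adjusted p = 0.148). The ILC2 call for Tcrg-C1 was lost with DESeq2 (adjusted p = 0.0873), with no block and without each of 3 libraries (edgeR adjusted p = 0.0634 to 0.107 without 12-week-DB, 21-week-DB or 21-week-WT). In NK cells, Trdv4 was higher by 2.36 ± 0.35 (edgeR adjusted p = 1.75e-05) and Trdc by 0.84 ± 0.23 (adjusted p = 0.00949), where 9.64% were called higher. The Trdc call in NK cells was lost at most 5% mitochondrial UMIs (edgeR adjusted p = 0.600) and without 12-week-WT (adjusted p = 0.154) or 21-week-WT (adjusted p = 0.0641). Tcrg-C1, Tcrg-C2 and Trgv2 were lower in NK cells, where 9.59% of genes were, and no fold is given for Tcrg-C2 and Trgv2, which had no UMI there. The NK call for Tcrg-C2 was lost without 12-week-DB (edgeR adjusted p = 0.0569), without 21-week-WT (adjusted p = 0.0551) and with a stricter gate, a margin of 1.0 SD (adjusted p = 0.0622), and that for Tcrg-C1 with the stricter gate (adjusted p = 0.0630).

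**Figure D3:**
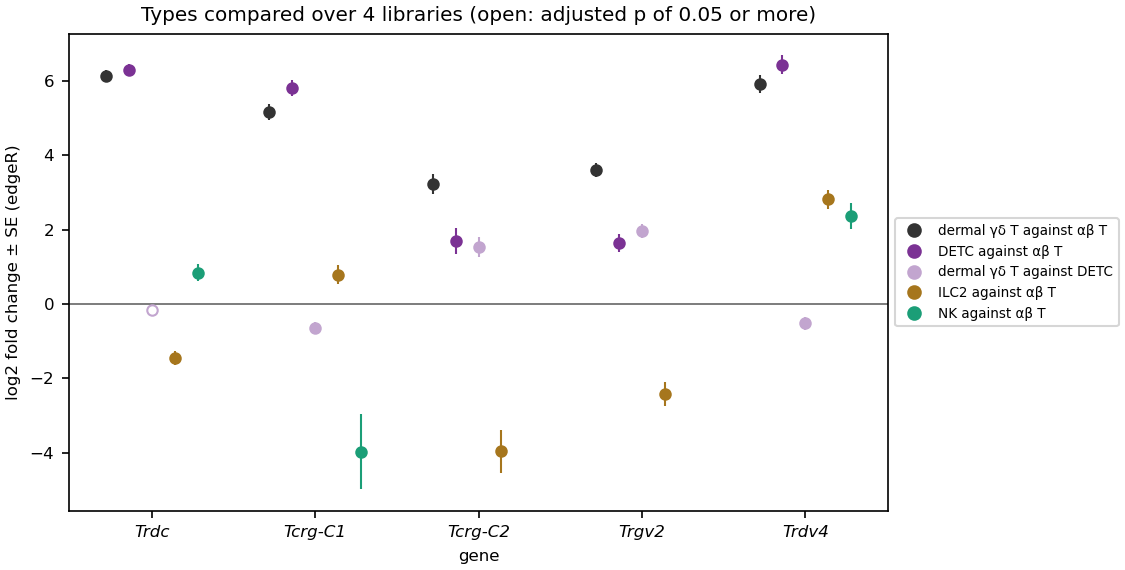
Log2 difference of each member between lymphoid types, with SE, from the edgeR fit over 20 sums of type and library. Tcrg-C2 and Trgv2 in NK cells had no UMI and are left out. Trdc exceeds 6 in both γδ types against αβ T cells, and Trdv4 is positive in every type against αβ T cells.

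Genes that work with the receptor differed from it. Of the 4 CD3 complex genes, which form the signalling part of every T cell receptor, Cd247 and Cd3g were higher in dermal γδ than in αβ T cells, where 10.1% of genes were, and all 4 were higher in DETC, where 24.7% were. The T cell gates required UMIs of Cd3d, Cd3e or Cd3g, so for these 3 genes this is no independent result. The αβ receptor genes Trac, Trbc1 and Trbc2 were lower in dermal γδ T cells, but Trac, Trbc1 and Trbc2 were markers of the αβ gate, so this is no independent result. Among 4 signalling genes, Lck, the kinase that starts receptor signalling, was lower in dermal γδ T cells by a log2 difference of -4.24 ± 0.16 (edgeR adjusted p = 2.68e-16), while Zap70 was higher by 0.60. The 8 interleukin-17 programme genes were all higher in dermal γδ T cells, but all 8 were markers of that gate. Trac was nonetheless detected in 24.0%, 24.7%, 15.9% and 22.5% of dermal γδ T cells.

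Of the other 21 γ and δ receptor rows, 5 passed the filter on low counts. All 5 were higher in dermal γδ than in αβ T cells, where 10.1% of all genes tested were. In DETC all 5 were likewise higher than in αβ T cells, where 24.7% of genes were. Tcrg-V6, the γ variable segment of fetal-wave dermal cells, was detected in 22.7%, 26.5%, 14% and 36.5% of dermal γδ T cells and in 1.21% or less of DETC. It exceeded DETC by 4.42 ± 0.33 on the log2 scale (edgeR adjusted p = 1.84e-10). Tcrg-V5, the segment of the DETC receptor, had the reverse pattern, with 18.6%, 16.5%, 14.3% and 15.98% of DETC and 1.56% to 5.73% of dermal γδ T cells, a log2 difference of -2.81 ± 0.31 (edgeR adjusted p = 1.14e-07). Tcrg-C4, another γ constant gene, was shared with ILC2, at 27.7%, 31.0%, 26.8% and 20.8% of cells, and exceeded αβ T cells there by 3.34 ± 0.24 (edgeR adjusted p = 4.44e-11). Trdv2-2, a δ variable segment, was found in 9.46%, 3.92%, 2.83% and 6.38% of NK cells and in 1.11% to 3.65% of dermal γδ T cells. It was called higher in NK than in αβ T cells (edgeR adjusted p = 1.64e-05), but no fold is given, because the 1614 αβ T cells held 1 UMI of it.

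Co-detection was read within barcodes. Of the 2625 dermal γδ T cells, 1130 (43.0%) had 3 of the 5 genes, 445 (16.95%) had all 5 and 2517 (95.9%) had 2 or more. Of DETC, 514 of 840 (61.2%) had 3 and 46 (5.48%) all 5. By contrast, 2 or more were found in 2.97% of αβ T cells, 4.08% of ILC2 and 0.719% of NK cells. Trdc and Tcrg-C1 occurred together in 81.2%, 81.8%, 73.6% and 78.6% of dermal γδ T cells. Nearly all cells with Trdv4 also had Trdc, at 99.2%, 99.5%, 99.8% and 98.9%.

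The γ genes paired unequally. Tcrg-C2 was detected in 72.6%, 74.1%, 67.2% and 57.0% of dermal γδ T cells with Trgv2 and in 18.5%, 17.8%, 17.6% and 10.1% of those without. After thinning to 2000 UMIs the shares were 40.0%, 29.8%, 31.6% and 32.2% with Trgv2 and 11.04%, 16.2%, 11.7% and 8.81% without, so the excess remained in all 4 libraries. Tcrg-C1 showed no such split by Tcrg-C2, with 84.7%, 80.6%, 75.0% and 83.7% in cells with Tcrg-C2 and 84.2%, 87.8%, 74.6% and 78.4% in cells without. Across the 20 sums, which share libraries and depth, the levels of Tcrg-C2 and Trgv2 also followed each other most closely (Pearson's r = 0.966, log2 scale), whereas Trgv2 and Trdv4 were at 0.535.

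Trdv4 followed Tcrg-V6. It was detected in 94.3%, 87.7%, 88.7% and 97.5% of dermal γδ T cells with Tcrg-V6 and in 57.9%, 70.6%, 70.4% and 81.8% of those without. Thinned, the shares were 69.7%, 58.2%, 63.6% and 84.4% with and 38.1%, 52.1%, 47.7% and 72.0% without. After thinning, 12-week-DB thus differed least, at 58.2% against 52.1%. With and without Trgv2, Trdv4 stood at 61.6%, 73.6%, 68.4% and 86.6% and at 68.9%, 76.1%, 76.2% and 88.2%. In ILC2, Trdc was found in 12%, 7.5%, 7.79% and 4.29% of cells with Trdv4 and in 4.35%, 4.48%, 2.92% and 3.93% of those without. The last library differed least.

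**Figure D4:**
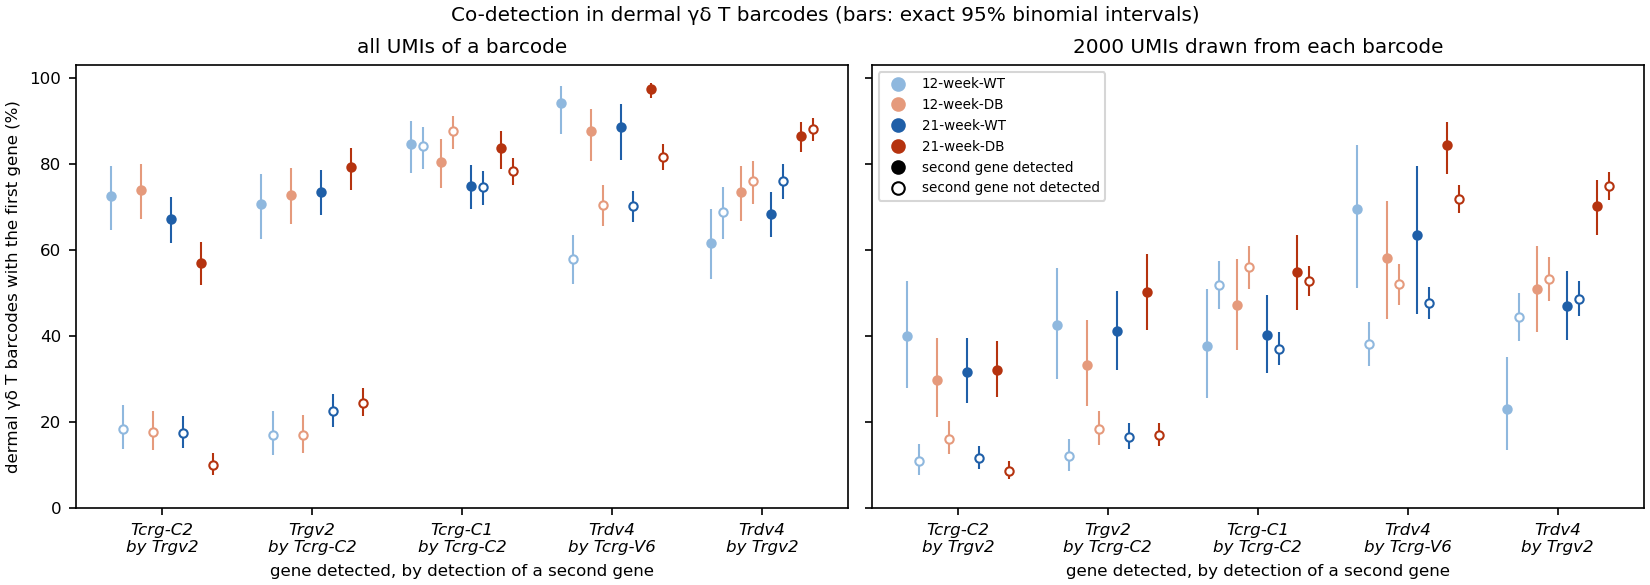
Percent of dermal γδ T cells positive for a gene among cells with (filled) and without (open) a second gene, by library, as deposited (left) and thinned to 2000 UMIs (right), with exact 95% intervals. As deposited, Tcrg-C2 is at 57.0% to 74.1% in cells with Trgv2 and at 10.1% to 18.5% in cells without, whereas Tcrg-C1 does not separate by Tcrg-C2.

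The DB to WT ratios in dermal γδ T cells were largest for Trdv4. At 12 weeks the ratio of CPM was 1.40 (1.29 to 1.51) for Trdv4, against 1.10 for Trdc, 1.095 for Tcrg-C1, 1.20 (1.03 to 1.39) for Tcrg-C2 and 0.937 (0.814 to 1.08) for Trgv2. No member passed 1.5-fold at 12 weeks, where 5.06% of genes were at least 1.5-fold higher and 3.39% lower. At 21 weeks the ratio was 1.91 (1.82 to 2.01) for Trdv4 and 1.57 (1.47 to 1.67) for Tcrg-C1, so 2 of 5 members were at least 1.5-fold higher, where 13.7% of genes were, and none was lower, where 10.1% were. Trdc was at 1.08 (1.05 to 1.11), Trgv2 at 1.21 (1.10 to 1.33) and Tcrg-C2 at 0.869 (0.770 to 0.980). For Tcrg-C1 the 21-week-WT library was low (252 CPM against 394 to 476 in the others). Tcrg-V6, which is not a member, had a ratio of 4.18 (3.44 to 5.11) at 21 weeks and 1.28 (1.01 to 1.63) at 12 weeks.

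DETC gave the same picture for Trdv4 at 21 weeks, at 1.82 (1.56 to 2.14), but not at 12 weeks, at 0.916 (0.820 to 1.02). Trdv4 was the 1 member of 5 that was at least 1.5-fold higher at 21 weeks, where 20.9% of genes in DETC were, and none was at 12 weeks, where 9.01% were. Trdc in DETC was at 0.830 (0.778 to 0.887) at 12 weeks and 1.10 (0.992 to 1.22) at 21 weeks, and Tcrg-C1 at 0.8345 and 0.911. Tcrg-C2 was the 1 member at least 1.5-fold lower in DB at each age, at 0.596 (0.414 to 0.871) and 0.376 (0.135 to 1.03), where 6.25% and 13.8% of genes were, and its later interval included 1. At most 5% mitochondrial UMIs, the 21-week ratio was 1.25 (0.258 to 11.8), on the other side of 1. These shares are over genes with at least 50 UMIs in the pair of libraries, a minimum that Tcrg-C2 missed at 21 weeks, with 10 UMIs in WT and 9 in DB. In ILC2, Trdv4 was at 0.896 (0.687 to 1.18) at 12 weeks and 1.64 (1.33 to 2.03) at 21 weeks. Tcrg-C1 in ILC2 was at 1.94 (1.21 to 3.26) and 1.735 (1.11 to 2.83). Of the members with 50 or more UMIs in the pair of libraries, 1 was thus at least 1.5-fold higher in ILC2 at 12 weeks, where 6.7% of genes were, and 2 were at 21 weeks, where 12.7% were. None of these was at least 1.5-fold lower, where 5.25% and 14.1% of genes were. At 21 weeks the DB level of Trdv4 was above the WT level in dermal γδ T cells, DETC and ILC2 alike. The other groups had the same direction. Levels of Trdv4 in WT and DB were 6.74 and 19.3 CPM in αβ T cells. NK cells, whose summed NK markers were at 7125 and 1859 CPM, had 29.2 and 71.5. Ungated lymphoid barcodes had 81.1 and 148.6 CPM. Macrophages had 0.612 (0.293 to 1.12) and 1.19 (0.683 to 1.94), with overlapping intervals. The difference was thus not particular to γδ T cells and ILC2, and its cause was not tested.

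Across age, Tcrg-C1 was lower in the 21-week libraries in both γδ types. ILC2 had the same direction, at 0.579 (0.306 to 1.10) in WT and 0.517 (0.398 to 0.673) in DB. Ungated lymphoid barcodes of DB went the other way, from 55.8 to 78.5 CPM. In dermal γδ T cells the 21-week to 12-week ratio of Tcrg-C1 was 0.579 (0.536 to 0.625) in WT and 0.829 (0.778 to 0.883) in DB. In DETC it was 0.504 (0.417 to 0.605) and 0.550 (0.487 to 0.620). Tcrg-C1 was the 1 member at least 1.5-fold lower in dermal γδ T cells of WT, where 11.5% of genes were, and none was in DB, where 19.9% were (Tcrg-C2 was just inside, at 0.667). In DETC, Tcrg-C2 was lower with Tcrg-C1, at 0.441 in WT and 0.278 in DB, which made 2 members at each genotype, where 15.3% and 23.6% of genes were. Trdv4 was higher with age in DB, at 1.64 (1.55 to 1.73) in dermal γδ T cells and 1.83 (1.68 to 1.99) in DETC, where 8.44% and 13.2% of genes were at least 1.5-fold higher. In WT no member was, where 3.13% and 8.61% of genes were. The file headers name software version 5.0.0 at 12 weeks and version 6.0.0 at 21 weeks, so age and software cannot be told apart. The DB libraries at each age share their software with the WT libraries.

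**Figure D5:**
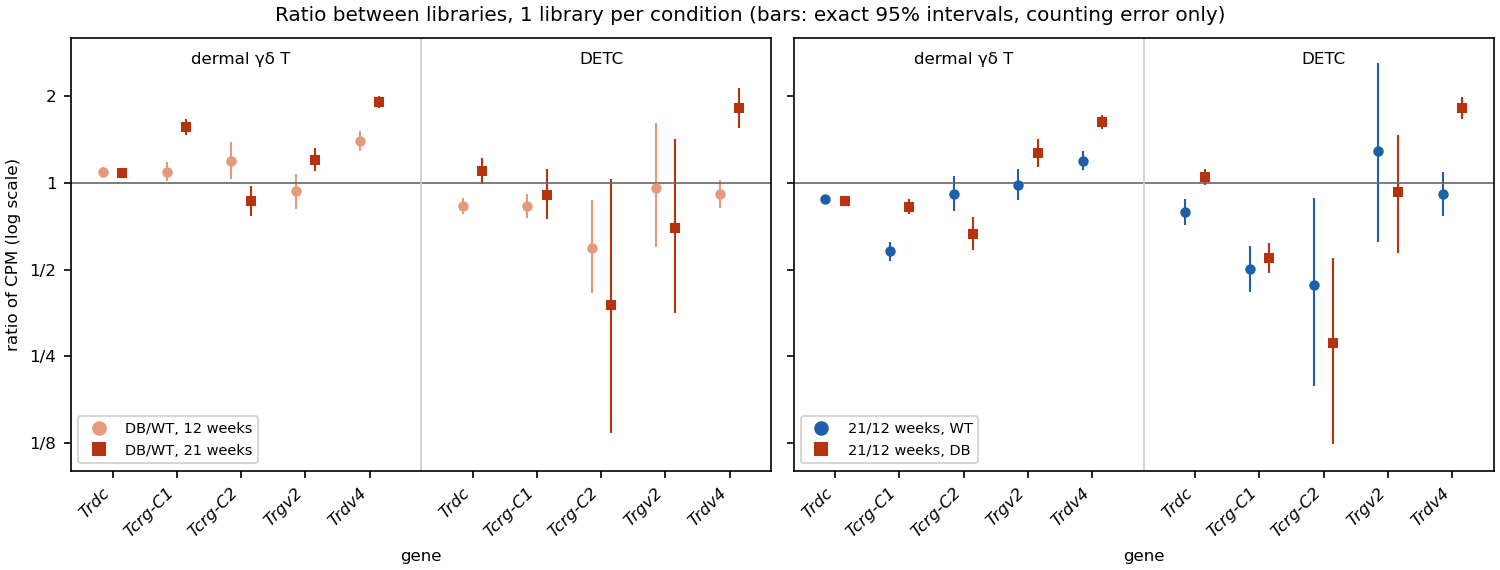
Ratio of CPM, DB to WT at each age (left) and 21 to 12 weeks in each genotype (right), for each member in dermal γδ T cells and DETC (log axis), with exact 95% counting intervals. On the left, Trdv4 is at 1.91 and 1.82 in dermal γδ T cells and DETC at 21 weeks, and Tcrg-C2 in DETC has the widest interval.

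Outside the receptor, the genes whose levels over the 20 sums were most like Trdc were Smox, Igf2r and Abi3bp (Pearson's r = 0.955, 0.951 and 0.949 among 10049 genes). Those for Tcrg-C1 were Ctnnd2, Auts2 and Grk3 (0.949, 0.932 and 0.926). Tcrg-C2 and Trgv2 shared Cyb5a (0.895 and 0.928), and Trdv4 was most like Prelid2 (0.904). These sums share libraries and depth, and the values describe likeness over types.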

How the data were processed

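CD45+ cells from digested hindpaws were profiled with the 10x Genomics single cell 3′ v3 assay, with 1 library per condition. The values deposited by the authors are raw UMI counts, made with Cell Ranger on mm10. The processing notes list version 5.0.0, whereas the file headers name 5.0.0 for the 12-week and 6.0.0 for the 21-week libraries. The matrices carry no ambient RNA or doublet removal. Groups came from the sample titles.

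Barcodes were required to have 200 or more genes and no more than 10% mitochondrial UMIs. A barcode was lymphoid when markers of 7 other lineages held at most 0.4% of its UMIs. It was gated to the type with the highest standardized mean marker score if that type had at least 3 detected markers, if the score exceeded the next by at least 0.5 SD, and if CD3 UMIs numbered at least 2 for T cell types or at most 1 for ILC2 and NK cells. Macrophage barcodes were those outside the lymphoid set with macrophage markers at 1% or more of UMIs and no CD3 UMI. The scoring rule was set after the counts were seen. The members, marker lists and gene lists were chosen with earlier results of these data known. Named genes were the members, the other receptor rows, the CD3, αβ receptor, signalling and interleukin-17 programme lists, and for each member the 3 genes most like it by Pearson's correlation of log2(CPM + 1), among genes with 200 or more UMIs.

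Shares have exact Clopper-Pearson intervals, levels exact Poisson intervals and ratios exact conditional intervals, at 95%. A count of 0 allows up to 3 counts. Ratio backgrounds used genes with at least 50 UMIs in the pair of libraries. Types were tested with edgeR 4.0.16 in R 4.3.3 on 20 summed counts (TMM, filterByExpr, library as block, adjusted p under 0.05), tested on simulated counts first. The types were gated on other genes of the same cells, so the test describes gated types. Positions and sequences came from the GENCODE annotation of GRCm38, the build of mm10. Alternatives were 500 genes, 5% mitochondrial UMIs, doublet removal by Scrublet score (scanpy 1.11.5) at 0.8% per 1000 barcodes, a margin of 1.0 SD, thinning to 2000 UMIs, 2 UMIs for a positive call, TMM scaling, DESeq2 1.42.0 or its size factors, no filter, no block, each library left out, and removal of shared barcodes, which was added after seeing the data.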

Additional observations from a re-analysis of the deposited data

Results flagged for a closer look

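Several DB to WT ratios lay on opposite sides of 1 in groups that share a contrast. None of these differences was tested, because each condition had 1 library. In dermal γδ T cells, Tcrg-C2 had a ratio of 1.20 at 12 weeks and 0.869 at 21 weeks, with neither counting interval including 1. At 12 weeks the γδ types differed in direction for 3 members. Trdc was at 1.10 in dermal γδ T cells and 0.830 in DETC, Tcrg-C1 was at 1.095 and 0.8345, and Tcrg-C2 was at 1.20 and 0.596.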

How the results depend on the processing

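No paired analysis was possible because each condition had 1 library, and library was the block within which types were compared. No direction that was called reversed. Of 325 log2 differences of members between types under the alternatives, 308 stayed on the same side of the threshold, among them those of Trdc between dermal γδ T cells and DETC, which was not called, and 17 lost their call. The lost calls are given beside the results. With no library block 1193 genes were called between dermal γδ and αβ T cells in place of 2165, and 1151 between ILC2 and αβ T cells in place of 2163. Without 1 library the former count ranged from 1435 (without 12-week-DB) to 1835.

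In dermal γδ T cells Trdc was detected in 91.9%, 95.1% and 93.6% (12-week-WT, 21-week-WT, 21-week-DB) at 2 or more UMIs, in 86.7%, 87.1%, 85.5% and 88.0% of thinned cells and in 97.5%, 96.2%, 99.0% and 98.0% under the stricter gate. Trdc with Tcrg-C1 fell to 44.2%, 50.3%, 32.6% and 47.6% when thinned and to 63.5%, 69.6%, 47.6% and 55.5% at 2 or more UMIs, and stood at 76.8% in 21-week-WT under the stricter gate.

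The 21-week DB to WT ratios in dermal γδ T cells became 1.04 (Trdc) and 1.72 (Trdv4) at most 5% mitochondrial UMIs, and 1.14 and 2.05 under the stricter gate. In DETC they became 0.915 and 1.51 under the stricter gate, 1.36 and 2.15 without the highest Scrublet scores, and 1.25 for Tcrg-C2 at 5% mitochondrial UMIs (0.258 to 11.8). The causes were not tested. TMM scaling moved 0 of 20 ratios beyond their intervals, with a log2 shift of up to 0.15 in DETC. Depth limits the members with few UMIs, such as Tcrg-C2 with 9 in DETC of 21-week-DB and 1 to 6 per library in ILC2.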

Other observations

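Receptor genes were also counted in barcodes outside the gated types. Lymphoid barcodes that passed no gate held 23.8% of all Trgv2 UMIs, 20.5% of Tcrg-C2, 14.2% of Trdv4, 12.1% of Tcrg-C1 and 10.8% of Trdc. For all 5 genes this share was highest in 21-week-DB, at 30.9%, 27.0%, 18.8%, 21.2% and 18.3% in the same order. In 21-week-WT it was 20.5%, 18.3%, 13.3%, 11.6% and 11.6%. The gated types thus held unequal parts of the UMIs by library, and the effect on ratios between libraries was not tested. Of the 4173 ungated lymphoid barcodes, 805 (19.3%) had Trdc and 894 (21.4%) had Trdv4. Among αβ T cells, 48 of 1614 (2.97%) had 2 or more of the 5 genes and 1 had all 5. Trdv5, a δ variable row that overlaps the end of Trdc by 207 bases on the opposite strand, was found in 4.43%, 2.45%, 3.17% and 0.604% of dermal γδ T cells.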
